A study of Homo sapiens with 6 samples.

Results

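The genes described here are 32 genes of sterol and fatty acid synthesis and its regulation, listed as controlled by the sterol regulatory element-binding proteins (SREBPs). Whether each of them answers to SREBPs in these cells was not tested. RNA of the 32 genes, captured after a short metabolic label, was compared between A375 cells expressing PRL3 and control A375 cells. Each symbol was matched to 1 Ensembl identifier, and all 32 were among the 58243 identifiers counted and passed the filter on low counts. A375 is a human melanoma cell line. The 3 control libraries (EV, replicates B1, B2 and B3) came from cells stably transfected with an empty vector, and the 3 PRL3 libraries (B9, B10 and B11) from cells stably transfected with a plasmid expressing human PRL3, a small phosphatase encoded by PTP4A3, carrying an HA tag. Both lines were kept under Hygromycin B at 100 µg/ml and received 4-thiouridine (4sU) at 500 µM for 20 min. RNA that had taken up the label was then biotinylated and captured, depleted of ribosomal RNA and sequenced with strand kept. The counts used here cover exons, and they may hold RNA that is not nascent. For nascent transcripts the study turned to intronic reads, naming splicing during transcription and carried-over mRNA as possible confounders. The sources used here do not say whether either line is a single clone or whether the libraries of a group come from separate cultures, so p-values measure the spread between these libraries, which may be technical.

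Cells make cholesterol from acetyl-CoA through the mevalonate pathway, which builds isoprenoid units and joins them into squalene, and then through a chain of enzymes in the endoplasmic reticulum that close the ring system of squalene and trim it. When membranes hold little sterol, the escort protein SCAP carries the SREBPs from the endoplasmic reticulum to the Golgi. There, proteases free the part that enters the nucleus and switches on genes of sterol and fatty acid synthesis. INSIG proteins hold SCAP back when sterol is plentiful. SREBF1 is best known for genes of fatty acid synthesis and SREBF2 for those of cholesterol synthesis.

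Annotated exons received 36532207 to 57952035 reads in each library. The transfected gene checked the labels, since PTP4A3 had 161, 212 and 279 normalized counts in the EV libraries and 22328, 28767 and 22065 in the PRL3 libraries. Normalized counts are reads divided by the library size after TMM scaling (trimmed mean of M-values) and brought to the mean library. Of the melanocyte lineage genes, MITF, SOX10, S100B and PMEL were read in every library, PMEL at 26 to 61 reads. MLANA, TYR, TYRP1 and DCT had at most 25 reads in any library. SOX10 had 22796 ± 4960 normalized counts in EV and 12613 ± 1788 in PRL3 (SD, n = 3), and S100B 2859 ± 450 and 1096 ± 38. MITF went the other way, at 1378 ± 150 and 1773 ± 51.3, with every PRL3 library above every EV library. The summed level of the 8 lineage markers, most of it SOX10, was 23486 to 32801 in EV and 13531 to 16937 in PRL3 libraries. The summed markers of other cells were lower, at 805 to 1068 in EV and 622 to 672 in PRL3 for 5 fibroblast genes, 1092 to 1218 and 368 to 618 for 3 keratinocyte genes (KRT5 and CDH1 near 0), and at most 141 for the blood, endothelial, and adipocyte and hepatocyte lists. Of the uniquely aligned reads, 33.3% ± 6.75 (SD, n = 3) lay outside annotated exons in EV cells and 66.3% ± 3.18 (SD, n = 3) in PRL3 cells. The part of this shift in the differences given here was not tested.

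RNA from most of these genes was lower in PRL3 cells. In edgeR's quasi-likelihood test 19 of the 32 genes (59.4%) were lower in PRL3 than in EV libraries at an adjusted p of 0.05, 2 (6.25%) were higher and 11 did not pass. Of all 23884 genes tested, 22.7% were lower and 20.0% were higher by the same rule, while among 14443 tested protein-coding genes the shares were 31.6% and 15.2%. The median log2 fold change of the 32 genes was -0.67 (range -1.61 to 1.02), beside 0.11 over all tested genes and -0.15 over the protein-coding ones. All 3 PRL3 libraries lay below all 3 EV libraries in 20 genes and above them in 3, where 26.6% and 29.7% of all tested genes did so. In a bulk library, fewer cells carrying a transcript and less of it per cell cannot be told apart.

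How libraries are scaled moved every fold change by about the same amount. With reads on genes alone as the library size, 11 of the 32 genes were lower and 9 higher, with a median log2 fold change of -0.17 against 0.60 for all genes. With all uniquely aligned reads as the library size, 23 were lower and 0 higher (edgeR's quasi-likelihood test), with a median of -1.14 against -0.36. The gap between the median of the 32 genes and the median of all genes was -0.77 with reads on genes alone and -0.78 with each of the other 4 scalings (TMM, RLE, upper-quartile, and all uniquely aligned reads). That gap depended on the genes compared. It was -0.67 in the fit with at least 10 counts in every library and -0.52 in the fit of protein-coding genes only. With TMM scaling each gene's value can be read against the median of 0.11 over all tested genes or of -0.15 over the protein-coding ones. Of the 19 lower genes, the 11 that were also lower with reads on genes alone were ACAT2, PMVK, MVD, IDI1, FDPS, LSS, NSDHL, EBP, DHCR7, SCAP and FASN. The other 8 had log2 fold changes of -0.32 to -0.065 there.

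**Figure D1:**
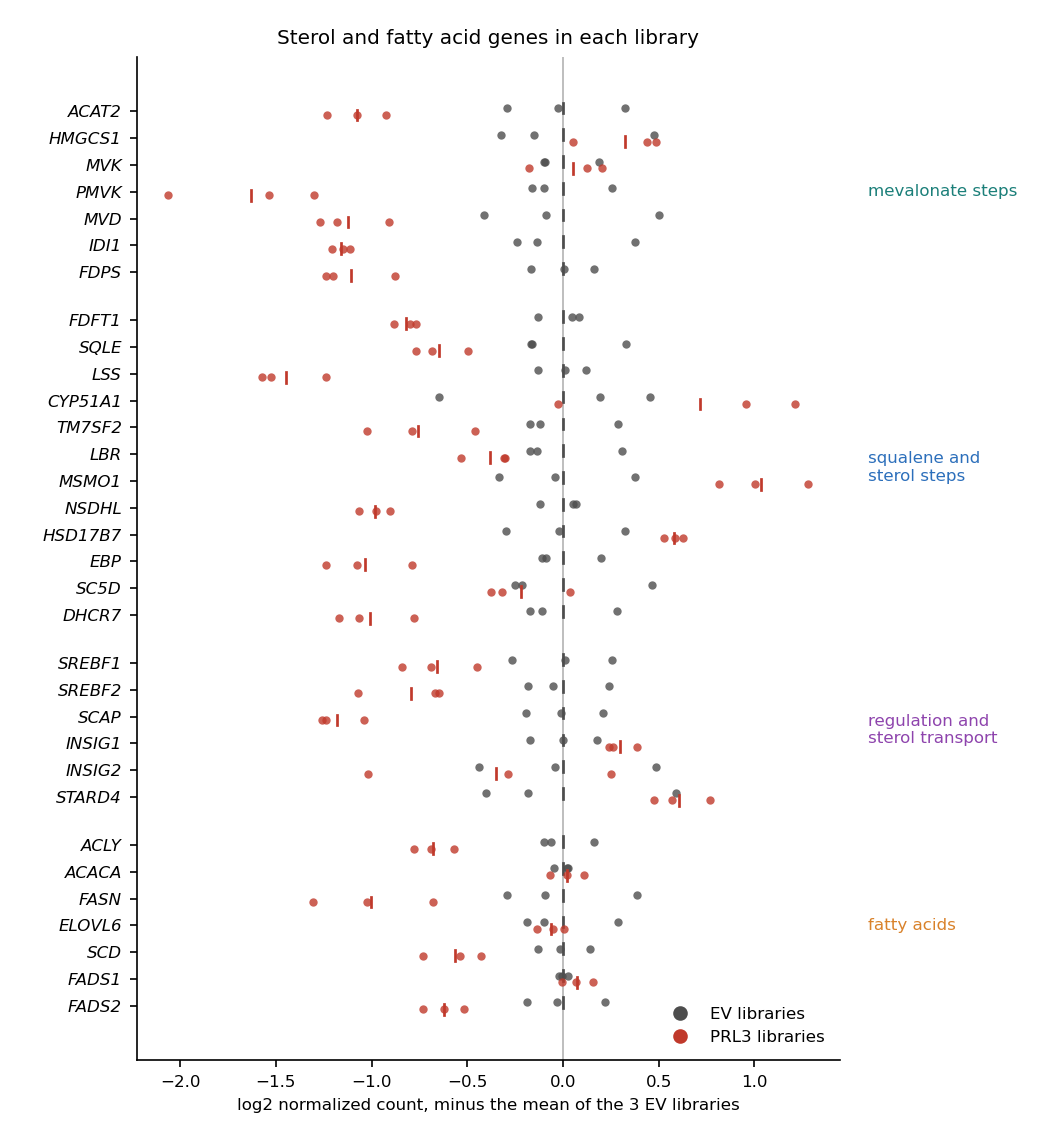
Normalized count of each of the 32 genes in each of the 6 libraries, on a log2 scale and relative to the mean of the 3 EV libraries, with TMM scaling; points are libraries (EV dark, PRL3 red) and short bars are group means. PRL3 points lie to the left of all EV points in 20 genes and to the right of all of them in MSMO1, HSD17B7 and INSIG1.

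**Figure D2:**
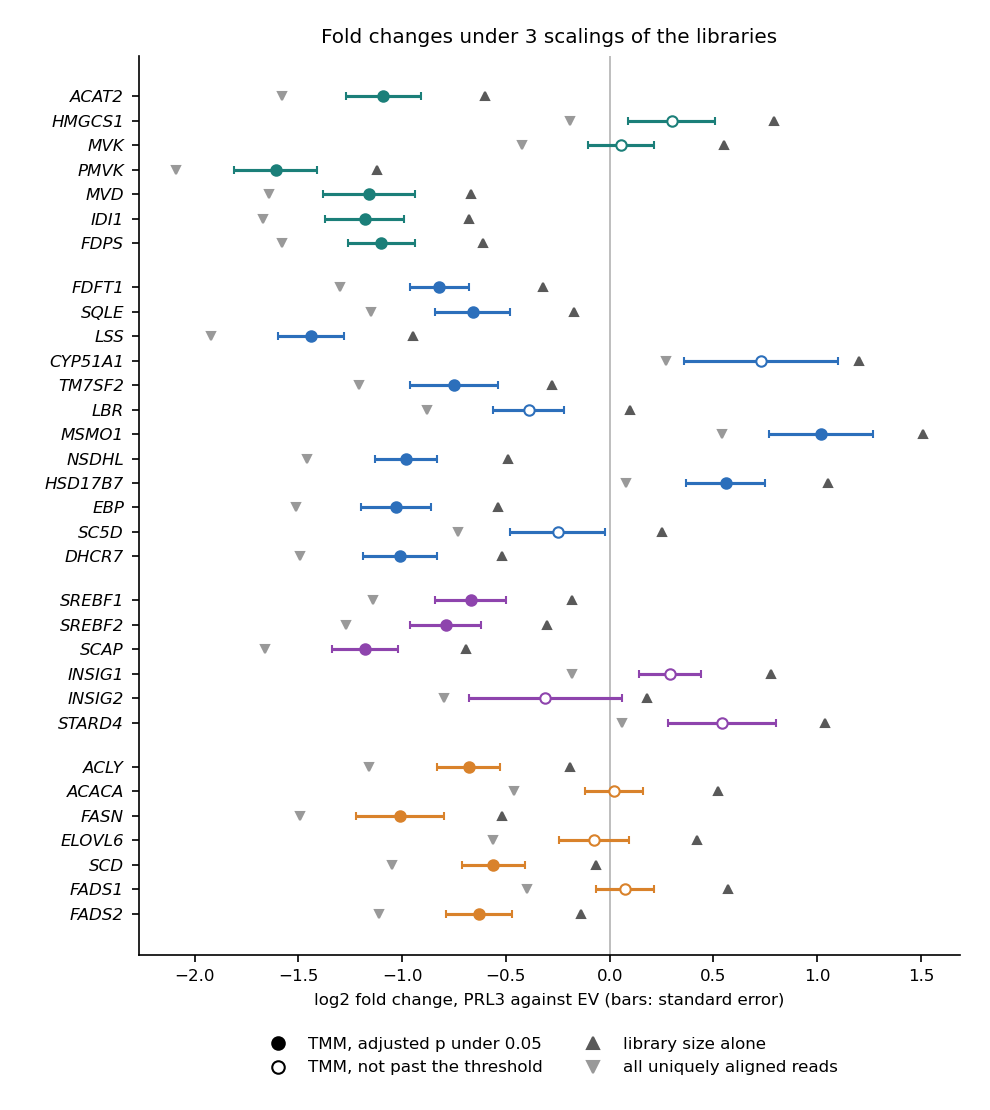
Log2 fold change of each gene, PRL3 against EV, with TMM scaling (circles with standard errors from edgeR, filled where the adjusted p is under 0.05), with reads on genes alone (upward triangles) and with all uniquely aligned reads (downward triangles). LBR, SC5D, INSIG2 and ELOVL6 lay above 0 with reads on genes alone, and HMGCS1, MVK, INSIG1, ACACA and FADS1 lay below 0 with all uniquely aligned reads; the other 23 genes kept their sign under the 3 scalings drawn.

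The regions around the start sites of 4 genes, taken from both ends of the list, are shown with the short motifs that SREBPs and their usual partners bind. RefSeq windows of 300 bases around an annotated start were held for 28 of the 32 genes, 38 windows in all. ACAT2, FDFT1, SQLE and FASN had no window and were not searched. The motifs searched on both strands were the sterol regulatory element TCACNCCAC, the E-box CACGTG, which SREBPs can also bind, the CCAAT box CCAAT of the factor NF-Y, and the GC box GGGCGG of Sp1; no pattern contains another. The 4 windows below belong to the 2 genes with the lowest log2 fold changes (PMVK and LSS) and the 2 called higher (MSMO1 and HSD17B7), and were chosen after the values had been seen. They are written 5′ to 3′ on the gene's strand from RefSeq's GRCh38.p14, at chr1:154936670-154936969 (minus strand) for PMVK, chr21:46228725-46229024 (minus) for LSS, chr4:165327419-165327718 (plus) for MSMO1 and chr1:162790452-162790751 (plus) for HSD17B7. Capitals mark a motif on either strand, so that ATTGG is a CCAAT box and CCGCCC a GC box read from the other strand.
PMVK: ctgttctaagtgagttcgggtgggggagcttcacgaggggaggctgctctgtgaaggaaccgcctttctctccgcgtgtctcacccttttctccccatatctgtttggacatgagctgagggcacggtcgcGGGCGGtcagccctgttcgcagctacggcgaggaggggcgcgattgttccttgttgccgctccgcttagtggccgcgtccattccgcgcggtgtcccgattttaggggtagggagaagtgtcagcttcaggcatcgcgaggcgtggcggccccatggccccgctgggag
LSS: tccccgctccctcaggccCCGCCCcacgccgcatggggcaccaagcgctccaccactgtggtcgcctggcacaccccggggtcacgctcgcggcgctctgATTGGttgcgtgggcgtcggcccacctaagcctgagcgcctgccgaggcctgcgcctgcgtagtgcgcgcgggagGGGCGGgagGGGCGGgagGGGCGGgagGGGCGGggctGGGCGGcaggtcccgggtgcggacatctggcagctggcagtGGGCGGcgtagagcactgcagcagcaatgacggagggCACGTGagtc
MSMO1: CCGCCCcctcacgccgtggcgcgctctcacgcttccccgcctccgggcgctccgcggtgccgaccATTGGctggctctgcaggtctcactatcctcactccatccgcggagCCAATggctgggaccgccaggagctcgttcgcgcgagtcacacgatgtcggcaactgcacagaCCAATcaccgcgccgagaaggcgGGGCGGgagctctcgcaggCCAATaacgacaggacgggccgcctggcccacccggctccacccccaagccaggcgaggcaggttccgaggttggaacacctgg
HSD17B7: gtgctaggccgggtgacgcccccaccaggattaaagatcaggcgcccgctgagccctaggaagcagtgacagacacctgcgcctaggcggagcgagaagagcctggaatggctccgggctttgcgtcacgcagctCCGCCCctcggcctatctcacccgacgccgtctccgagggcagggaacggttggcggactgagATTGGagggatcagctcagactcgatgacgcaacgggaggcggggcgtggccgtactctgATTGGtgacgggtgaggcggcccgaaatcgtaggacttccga

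PMVK has 1 GC box and no other motif in its window, whereas LSS has 7 GC boxes, 1 CCAAT box and 1 E-box. MSMO1 has 4 CCAAT boxes and 2 GC boxes, and HSD17B7 has 2 CCAAT boxes and 1 GC box. Over the 28 genes, 26 had a GC box (86.8% of their windows, beside 45% of all 35116 windows in the table), 20 a CCAAT box (63.2% beside 34.6%), 4 an E-box (13.2% beside 7.26%) and 1, SREBF2, the sterol regulatory element (2.63% beside 1.13%). That stretch of SREBF2, at chr22:41832952-41833020 on the plus strand, holds the element and then a CCAAT box on the other strand.
SREBF2: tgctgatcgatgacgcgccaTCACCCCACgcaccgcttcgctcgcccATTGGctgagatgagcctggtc
Of the windows shown, those of LSS and SREBF2 (lower in PRL3 cells) and of MSMO1 and HSD17B7 (higher) held both GC and CCAAT boxes. That of PMVK (lower) held no CCAAT box. Most of the 28 genes have these boxes, so the few windows shown cannot tell whether either goes with the direction, which was not tested. Only fixed patterns were searched within the windows, so a sterol regulatory element that departs from TCACNCCAC or lies elsewhere was not counted.

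The early enzymes, from acetyl-CoA to farnesyl diphosphate, held 5 lower genes of 7 (71.4%) and none higher, with a median log2 fold change of -1.10. Over all tested protein-coding genes 31.6% were lower and 15.2% higher. PMVK, phosphomevalonate kinase (chromosome 1 of GRCh38, 154924740 to 154936719), had 2840, 3632 and 2718 normalized counts in EV and 728, 1235 and 1046 in PRL3 libraries. Its log2 fold change of -1.61 (standard error, SE, 0.20, adjusted p = 4.82e-05) was the lowest of the 32. FDPS, farnesyl diphosphate synthase (chromosome 1, 155308748 to 155320666), had 11340, 12657 and 10044 in EV and 4787, 6149 and 4904 in PRL3, a log2 fold change of -1.10 (SE 0.16, adjusted p = 0.000135). In both genes the highest PRL3 library was well under the lowest EV library. Per kilobase of exon PMVK and FDPS stood close together in EV cells, at 3057 ± 495 and 3052 ± 351 normalized counts (SD, n = 3), and far above the other genes of this stretch, the next of which was ACAT2 at 1343 ± 290.

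ACAT2, which makes acetoacetyl-CoA in the cytosol (chromosome 6, 159762045 to 159779112), had 4362, 3427 and 2845 normalized counts in EV and 1484, 1836 and 1657 in PRL3, a log2 fold change of -1.09 (SE 0.18, adjusted p = 0.00031). MVD, mevalonate diphosphate decarboxylase (chromosome 16, 88651935 to 88663161), had 1133, 2139 and 1418 in EV and 625, 804 and 665 in PRL3, a log2 fold change of -1.16 (SE 0.22, adjusted p = 0.00109). IDI1, the isomerase that supplies dimethylallyl diphosphate (chromosome 10, 1039152 to 1049119), had 2259, 1469 and 1583 in EV and 803, 752 and 784 in PRL3, a log2 fold change of -1.18 (SE 0.19, adjusted p = 0.000254). The groups did not overlap in any of these genes, and the EV libraries were the more scattered, with a highest value 1.53, 1.89 and 1.54 times the lowest in ACAT2, MVD and IDI1 against 1.24, 1.29 and 1.07 times in PRL3 libraries. The remaining enzymes did not pass the test. HMGCS1, HMG-CoA synthase, had 1867 ± 572 in EV and 2293 ± 359 in PRL3 (SD, n = 3), a log2 fold change of 0.30 (SE 0.21), and MVK, mevalonate kinase, had 1827 ± 215 and 1898 ± 254, a log2 fold change of 0.055 (SE 0.16). Without EV B1 HMGCS1 passed as higher (log2 fold change 0.57, adjusted p = 0.0186). The calls of both genes depended on the scaling. With reads on genes alone both passed as higher, at 0.79 (adjusted p = 0.00414) and 0.55 (adjusted p = 0.0128), and with all uniquely aligned reads they had negative values of -0.19 and -0.42 and did not pass.

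From squalene to cholesterol, 7 of 12 genes (58.3%) were lower and 2 (16.7%) were higher, with a median log2 fold change of -0.71. The shares over tested protein-coding genes were 31.6% lower and 15.2% higher. LSS, lanosterol synthase, which closes the rings (chromosome 21, 46188141 to 46228824), had 4585, 5467 and 5055 normalized counts in EV and 1691, 2128 and 1745 in PRL3, a log2 fold change of -1.44 (SE 0.16, adjusted p = 1.92e-05). EBP, a sterol isomerase (chromosome X, 48521799 to 48528716), had 3341, 4081 and 3296 in EV and 1508, 2055 and 1685 in PRL3, a log2 fold change of -1.03 (SE 0.17, adjusted p = 0.000296). DHCR7, the reductase that finishes cholesterol (chromosome 11, 71428193 to 71452868), had 2565, 3524 and 2683 in EV and 1383, 1685 and 1285 in PRL3, a log2 fold change of -1.01 (SE 0.18, adjusted p = 0.000498). All PRL3 libraries lay below all EV libraries in these genes. In EBP 36.4% of the exonic bases belong also to an exon of another gene on the same strand in GENCODE 44, so its count is less certain.

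The other lower genes of this stretch were FDFT1, squalene synthase (log2 fold change -0.82), SQLE, squalene epoxidase (-0.66), TM7SF2, a sterol reductase (-0.75), and NSDHL (-0.98), with adjusted p from 0.000199 to 0.0105. Without PRL3 B11, SQLE (log2 fold change -0.60, adjusted p = 0.0605) and TM7SF2 (-0.72, adjusted p = 0.0526) did not pass, and without PRL3 B9 TM7SF2 (-0.62, adjusted p = 0.0666) did not. The lamin B receptor LBR, which carries the same reductase activity as TM7SF2 and anchors chromatin at the nuclear envelope, had a log2 fold change of -0.39 (adjusted p = 0.0738) with its PRL3 libraries all below the EV libraries, and SC5D, a sterol desaturase, one of -0.25 (adjusted p = 0.413). LBR was called lower by DESeq2 (adjusted p = 0.0415) and without EV B3 (log2 fold change -0.49, adjusted p = 0.0414). With all uniquely aligned reads both were called lower, LBR at -0.88 (adjusted p = 0.00152) and SC5D at -0.73 (adjusted p = 0.0193), and with reads on genes alone both had positive values that did not pass (0.10 and 0.25).

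MSMO1 and HSD17B7 went the other way. MSMO1, a sterol methyl oxidase (chromosome 4, 165327667 to 165343164), had 280, 171 and 210 normalized counts in EV and 379, 433 and 524 in PRL3, a log2 fold change of 1.02 (SE 0.25, adjusted p = 0.00534). HSD17B7, a sterol ketoreductase (chromosome 1, 162790702 to 162812823), had 709, 461 and 559 in EV and 875, 819 and 852 in PRL3, a log2 fold change of 0.56 (SE 0.19, adjusted p = 0.0332). All PRL3 libraries were above all EV libraries in both, and neither passed with all uniquely aligned reads, where the values were 0.54 and 0.079. HSD17B7 passed in only 1 of the 6 fits that left out a library, the one without EV B1 (0.74, adjusted p = 0.00649); in the others its log2 fold change was 0.44 to 0.59 with adjusted p from 0.0583 to 0.0986. These enzymes work with NSDHL to strip a pair of methyl groups from the ring system, and NSDHL fell from 2298 ± 161 to 1162 ± 63.3 normalized counts (SD, n = 3; log2 fold change -0.98, SE 0.15, adjusted p = 0.000199). The direction therefore differed among the 3 enzymes of 1 reaction sequence.

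CYP51A1, lanosterol demethylase (chromosome 7, 92084987 to 92134803), had few reads, with 75.5, 162 and 135 normalized counts in EV and 116, 274 and 229 in PRL3, and the groups overlapped (log2 fold change 0.73, SE 0.37, adjusted p = 0.13). It passed as higher with reads on genes alone (adjusted p = 0.0152) and with protein-coding genes only (adjusted p = 0.0406). In GENCODE 44, 68.2% of its exonic bases are shared with exons of other genes on the same strand, which was not checked in the release used for counting. It also has pseudogenes that resemble it. Its pseudogene CYP51A1P3 had 16, 14 and 16 reads in EV and 180, 215 and 159 in PRL3 libraries. Among the pseudogenes of the other members, HSD17B7P2 rose from 38, 12 and 47 to 98, 150 and 83 reads and FDPSP8 from 4, 5 and 86 to 139, 162 and 95. Their log2 fold changes were 1.54 and 1.99 (adjusted p = 0.0177 and 0.0482), and that of CYP51A1P3 was 3.34 (adjusted p = 2.29e-05). Of all tested genes 20.0% were higher, and the other tested pseudogenes, FDPSP1, FDPSP3, FDPSP4 and SCDP1, did not pass (adjusted p from 0.0958 to 0.692). Reads that fit such a copy and the working gene equally well cannot be placed, so these values and those of CYP51A1, HSD17B7 and FDPS are less certain. FDPS had 4575 to 11046 reads in each library, against at most 162 on FDPSP8.

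**Figure D3:**
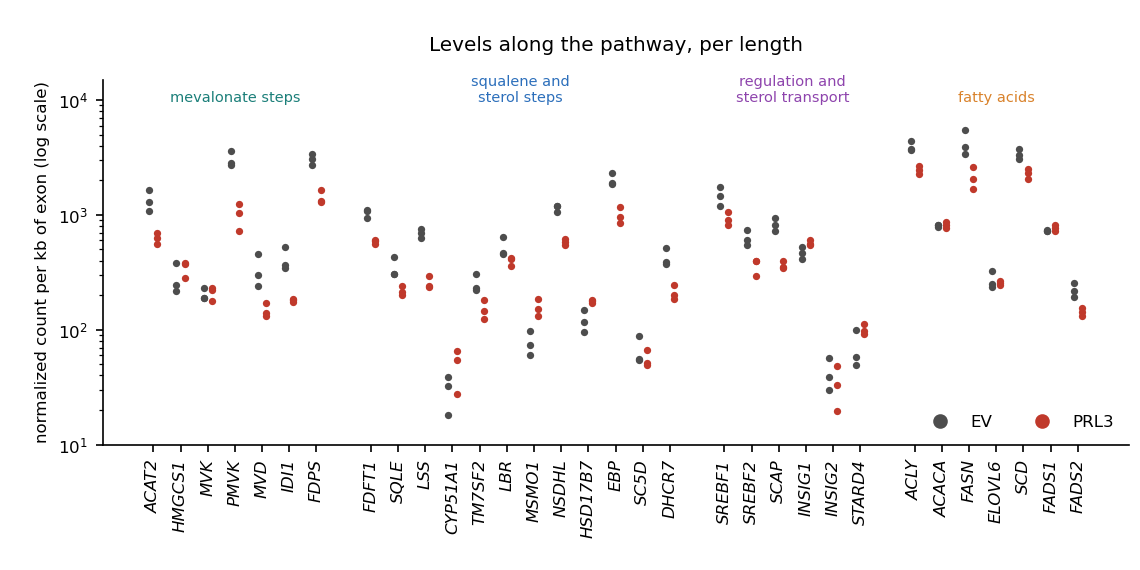
Level of each gene in each library, as normalized counts per kilobase of exon on a log scale, in pathway order, with EV libraries dark and PRL3 libraries red. In EV cells the levels run from 29.8 for CYP51A1 to 4269 for FASN, and the 2 genes called higher in PRL3 cells, MSMO1 and HSD17B7, had EV means of 77.3 and 120. The level of CYP51A1 may be too low, since most of its exonic bases are shared with other genes.

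Among the regulators, the genes for both SREBPs and for SCAP were lower and those for the INSIG proteins did not pass. SCAP (chromosome 3, 47413681 to 47477126) had 4517, 5959 and 5118 normalized counts in EV and 2155, 2511 and 2193 in PRL3, a log2 fold change of -1.18 (SE 0.16, adjusted p = 6.61e-05). SREBF2 (chromosome 22, 41833105 to 41907306) had 4423, 5925 and 4835 in EV and 3163, 3204 and 2387 in PRL3, a log2 fold change of -0.79 (SE 0.17, adjusted p = 0.0022). SREBF1 (chromosome 17, 17810399 to 17837002) had 9927, 14285 and 12065 in EV and 7422, 8757 and 6681 in PRL3, a log2 fold change of -0.67 (SE 0.17, adjusted p = 0.0069). The groups did not overlap in any of these. SREBF1 and SREBF2 did not pass with reads on genes alone, and SREBF1 did not pass without PRL3 B11 (log2 fold change -0.57, adjusted p = 0.0537).

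INSIG1 (chromosome 7, 155297776 to 155310235) had 1508, 1699 and 1920 normalized counts in EV and 2039, 2223 and 2009 in PRL3, a log2 fold change of 0.29 (SE 0.15, adjusted p = 0.147), with every PRL3 library above every EV library. With upper-quartile scaling, with reads on genes alone and with protein-coding genes only it passed as higher (adjusted p = 0.0268, 0.00161 and 0.0199), while with all uniquely aligned reads its value was -0.18. INSIG2 (chromosome 2, 118088452 to 118110997) had 222, 154 and 117 in EV and 78.2, 130 and 189 in PRL3, with overlapping groups and a log2 fold change of -0.31 (SE 0.37, adjusted p = 0.531). STARD4, which moves sterol between membranes, had 390 ± 150 in EV and 569 ± 59.4 in PRL3 (SD, n = 3), a log2 fold change of 0.54 (SE 0.26, adjusted p = 0.103). It passed as higher with upper-quartile scaling (adjusted p = 0.0258), reads on genes alone (0.00432), protein-coding genes only (0.0171) and limma-voom (0.0489) and without EV B1 (0.00506), and not with all uniquely aligned reads (log2 fold change 0.06).

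An intron of each SREBF gene holds a microRNA, and the sequences are given because both share the seed that pairs with targets (bases 2 to 8, in capitals), as RefSeq's GRCh38.p14 lists them 5′ to 3′. MIR33A lies inside SREBF2 at chr22:41900944-41901012 and MIR33B inside SREBF1 at chr17:17813836-17813931.
hsa-miR-33a-5p: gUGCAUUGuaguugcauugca
hsa-miR-33b-5p: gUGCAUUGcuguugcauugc
These microRNAs are known for lowering cholesterol efflux. The count files hold reads on the annotated hairpins, not the mature microRNAs. MIR33B had 33, 80 and 21 reads in EV and 19, 78 and 38 in PRL3 libraries (log2 fold change -0.38, SE 0.63, adjusted p = 0.661). MIR33A had 0, 0 and 0 reads in EV and 12, 13 and 3 in PRL3, at least 7.91-fold higher in PRL3 when EV is set at a floor of 3 reads over the group. It did not pass the filter on low counts and has no test. The share of reads outside annotated exons was also higher in PRL3 libraries, and its part in this count was not tested.

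Genes that lie within the members have counts of their own, but intron RNA of a host on the same strand would be counted on them too. The share of reads outside annotated exons was higher in PRL3 libraries, and its part in these counts was not tested. GENCODE 44 places 18 genes within 13 of the 32 genes. Of the 6 that were tested, 2 were higher in PRL3 and none was lower, where 20.0% of all tested genes were higher. Both are on the host's strand, as were 4 of the 6. The signal recognition particle RNA copy Metazoa_SRP in EBP had 16, 12 and 19 reads in EV and 71, 104 and 37 in PRL3 (log2 fold change 1.89, SE 0.53, adjusted p = 0.0114), while EBP itself fell. The pseudogene ENSG00000274308 in ACACA had 91, 95 and 117 reads in EV and 454, 394 and 262 in PRL3 (log2 fold change 1.65, SE 0.28, adjusted p = 0.000411), while ACACA had a log2 fold change of 0.022. The other tested ones were MIR33B, HMGB1P24 in ACACA (log2 fold change 0.059), ENSG00000255046 opposite to FDFT1 (0.76) and ENSG00000254682 opposite to DHCR7 (0.40), with adjusted p from 0.203 to 0.868.

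Of the 7 genes of fatty acid synthesis and desaturation, 4 were lower and none was higher, with a median log2 fold change of -0.56. FASN, fatty acid synthase (chromosome 17, 82078338 to 82098294), had 31884, 50960 and 36516 normalized counts in EV and 15777, 24318 and 19181 in PRL3, a log2 fold change of -1.01 (SE 0.21, adjusted p = 0.00159). ACLY, which makes cytosolic acetyl-CoA from citrate, fell from 20517 ± 2062 to 12804 ± 948 normalized counts (SD, n = 3; log2 fold change -0.68, adjusted p = 0.00251). SCD, the stearoyl-CoA desaturase, fell from 17792 ± 1685 to 12036 ± 1266 (log2 fold change -0.56, adjusted p = 0.00897) but did not pass without PRL3 B11 (-0.48, adjusted p = 0.0728). In FASN, ACLY and SCD no PRL3 library reached the lowest EV library. ACACA, acetyl-CoA carboxylase, which stands between ACLY and FASN in the pathway, had 10524 ± 290 in EV and 10684 ± 655 in PRL3 (log2 fold change 0.022, SE 0.14). Its call turned with the scaling, higher with reads on genes alone (0.52, adjusted p = 0.00729), lower with all uniquely aligned reads (-0.46, adjusted p = 0.0415), and not past the threshold under RLE scaling (-0.016). ELOVL6, a fatty acid elongase, had a log2 fold change of -0.076 (SE 0.17), with 0.42 with reads on genes alone (adjusted p = 0.0503) and -0.56 with all uniquely aligned reads (adjusted p = 0.0217).

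FADS1 and FADS2, front-end desaturases of polyunsaturated fatty acids, overlap on opposite strands of chromosome 11, FADS1 from 61799627 to 61829318 and FADS2 from 61792980 to 61867354. FADS2 was lower, at 2341 ± 336 in EV and 1512 ± 114 in PRL3 (SD, n = 3; log2 fold change -0.63, SE 0.16, adjusted p = 0.00644), whereas FADS1 had 7475 ± 130 and 7866 ± 444 (log2 fold change 0.074, SE 0.14, adjusted p = 0.699). With reads on genes alone FADS1 passed as higher (0.57, adjusted p = 0.00426) and FADS2 did not pass (-0.14), and with all uniquely aligned reads FADS1 had -0.40 (adjusted p = 0.0629). A ratio taken within a library does not depend on how libraries are scaled. The log2 ratio of FADS1 to FADS2 reads was 1.86, 1.45 and 1.74 in EV and 2.46, 2.27 and 2.41 in PRL3, a difference of 0.70 between means of 1.68 ± 0.21 and 2.38 ± 0.10 (SD, n = 3; two-sided exact permutation p = 0.1, the smallest that 3 libraries against 3 allow). The groups did not overlap in this ratio, which ranged over a difference of 0.58 to 0.78 when libraries were left out in turn.

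The other 4 ratios compared had overlapping groups. The log2 ratio of SREBF1 to SREBF2 was 1.25 ± 0.08 in EV and 1.39 ± 0.14 in PRL3 (SD, n = 3; exact permutation p = 0.3), a difference of 0.14. That of INSIG1 to INSIG2 was 3.42 ± 0.63 and 4.06 ± 0.64 (exact permutation p = 0.3), that of TM7SF2 to LBR -1.78 ± 0.45 and -2.15 ± 0.19 (exact permutation p = 0.2), and that of SCD to FASN -1.14 ± 0.42 and -0.70 ± 0.39 (exact permutation p = 0.3). After Benjamini-Hochberg adjustment over the 5 ratios each exact permutation p was 0.3.

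**Figure D4:**
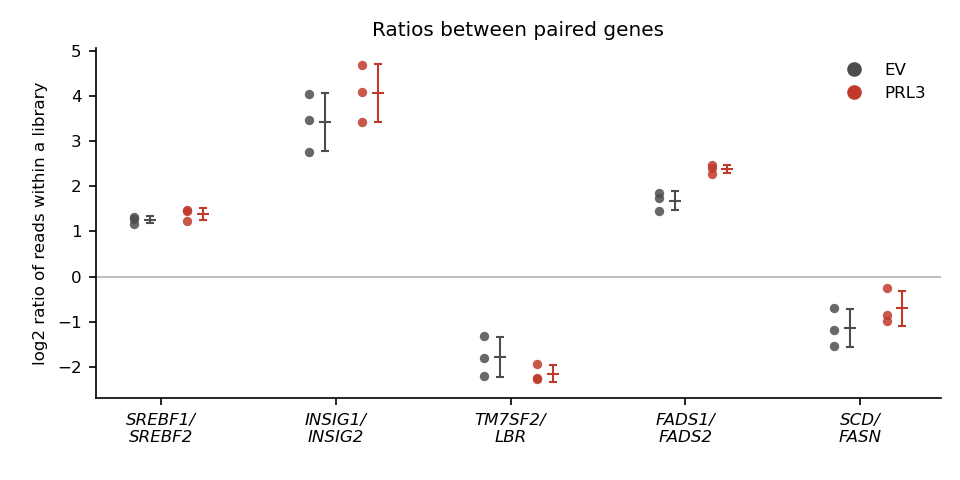
Log2 ratio of the reads of paired genes within each library (EV dark, PRL3 red), with the group mean and SD (n = 3) beside the points. Only the FADS1 to FADS2 ratio, at 1.45 to 1.86 in EV and 2.27 to 2.46 in PRL3, has groups that do not overlap.

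Summed per kilobase of exon, the 32 genes came to 32561 ± 3021 normalized counts in EV and 18987 ± 1675 in PRL3 (SD, n = 3). The 7 early genes had the lowest log2 ratio of the 4 roles, -1.14, with sums of 8681 ± 1029 and 3936 ± 575, and PMVK and FDPS gave the greater part of that sum in EV. The 12 genes of the sterol stretch summed to 6747 ± 408 and 3831 ± 346, the 6 regulatory and transport genes to 3502 ± 466 and 2358 ± 221, and the 7 fatty acid genes to 13631 ± 1398 and 8862 ± 655. FASN had the highest level per kilobase in EV, at 4269 ± 1067, and differed from ACLY, at 3940 ± 396, by less than its SD. In PRL3 cells ACLY (2459 ± 182), SCD (2295 ± 241) and FASN (2120 ± 461) came in that order, and each differed from its neighbour by less than the SD of either. The lowest levels in EV were those of CYP51A1 (29.8 ± 10.6), INSIG2 (41.6 ± 13.4), SC5D (66.1 ± 19.7), STARD4 (68.7 ± 26.4) and MSMO1 (77.3 ± 19.4), and none of these 5 was called lower in PRL3. The level of CYP51A1 may be too low, since 68.2% of its exonic bases are shared with other genes in GENCODE 44.

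Fold change went with level more than with gene length among the 32 genes. Spearman's rho of the log2 fold change with the EV level per kilobase was -0.60 over the 32 genes and -0.44 over 14443 protein-coding genes, with the EV level entering both quantities. With gene length rho was 0.20 and 0.30, and with the exonic share of the gene 0.02 and -0.20; the genes share libraries, and these are descriptions. In length classes chosen after the values had been seen, the 7 genes under 15 kb had a median log2 fold change of -1.10 (protein-coding genes of that length -0.56), the 15 genes of 15 to 30 kb one of -0.31 (-0.29), and the 10 genes over 30 kb one of -0.74 (0.017). Of the 10 genes over 30 kb, 7 were called lower (FDFT1, LSS, NSDHL, SREBF2, SCAP, ACLY and FADS2) and none higher, and CYP51A1, ACACA and ELOVL6 did not pass. Over tested protein-coding genes of any length 31.6% were lower and 15.2% higher. The shares among those over 30 kb were not computed.

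**Figure D5:**
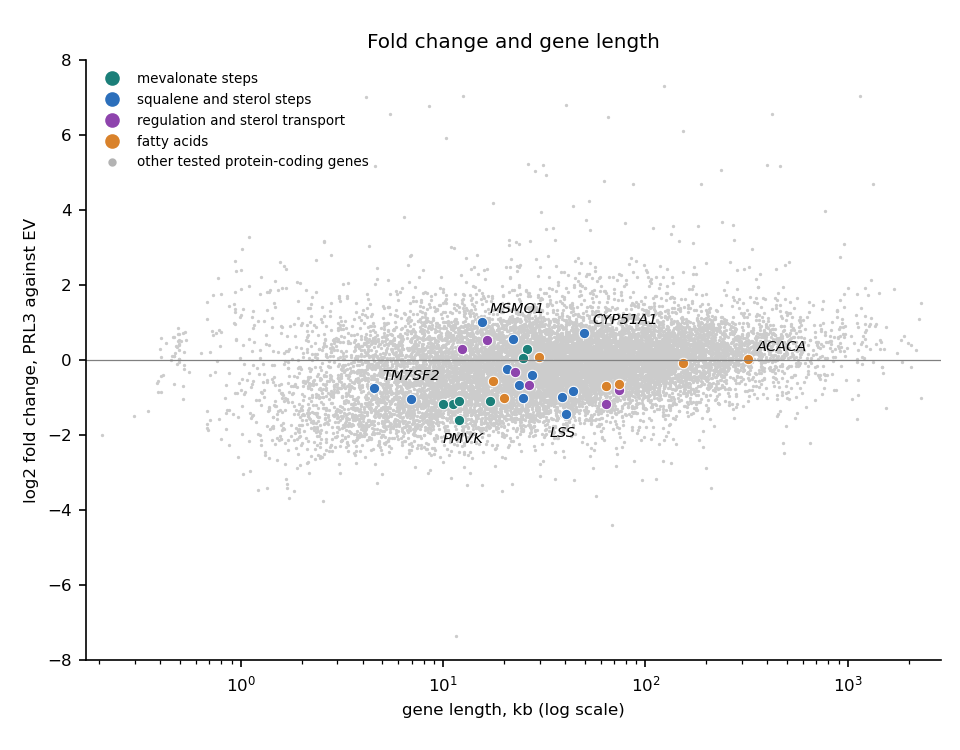
Log2 fold change (PRL3 against EV, TMM scaling) against gene length on a log scale for the 32 genes, coloured by role, and for the other tested protein-coding genes in grey. Between PMVK and LSS at the bottom and MSMO1 at the top, the 32 genes cover lengths from TM7SF2 to ACACA, and the 10 genes over 30 kb have a median of -0.74 where protein-coding genes of that length have 0.017.

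Further genes of these pathways were listed for their roles. Of 55 listed, 53 were tested, 20 of them were lower (37.7%) and 5 higher (9.43%), with a median log2 fold change of -0.27, beside 22.7% lower and 20.0% higher over all tested genes and 31.6% and 15.2% over the protein-coding ones. By role, against the same shares, 3 of 11 genes that handle SREBPs and INSIGs were lower, as were 2 of 10 in isoprenoid branches, 6 of 10 in sterol esterification, transport and efflux, and 9 of 22 in fatty acid supply, elongation and activation. Whether these shares differ from that of the 32 genes was not tested. The lowest were SLC25A1, the mitochondrial citrate carrier that supplies ACLY, with 4520, 6643 and 5454 normalized counts in EV and 1120, 1741 and 1300 in PRL3 (log2 fold change -2.0, SE 0.20), ACSS2, which makes acetyl-CoA from acetate (-1.96, SE 0.19), and NR1H2, a sterol-sensing nuclear receptor (-1.58, SE 0.21). The highest were ACACB, with 1044, 1246 and 1598 in EV and 3330, 2718 and 2564 in PRL3 (log2 fold change 1.15, SE 0.18), MYLIP, a ubiquitin ligase for lipoprotein receptors (1.03, SE 0.18), and PGGT1B, a prenyltransferase subunit (0.79, SE 0.21). ACACB makes malonyl-CoA as ACACA does but at mitochondria, and it was higher with TMM scaling, where ACACA had a log2 fold change of 0.022.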

How the data were processed

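The data are 4sU-seq libraries of A375 cells, 3 EV and 3 PRL3. The authors deposited raw counts per Ensembl gene, made, per the study's methods and the submitters' processing notes, by FastQC 0.11.3, STAR 2.5.1b alignment to GRCh38 and htseq-count 0.6.1 with the reverse-strand setting on Ensembl release 91. The counts cover exons of the gene's strand and were not normalized. Symbols and coordinates came from GENCODE 44 (57532 of 58243 identifiers matched), a later release on the same build, and exon lengths are the union of its exons.

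The comparison used edgeR 4.0.16 (R 4.3.3) on all 6 libraries: filterByExpr by group (23884 genes kept), TMM scaling, quasi-likelihood test and Benjamini-Hochberg adjustment over all genes kept. The study used DESeq2, run here as an alternative (1.42.0). Standard errors were derived from the F statistic. Ratios used reads plus 0.5 and an exact permutation test (scipy 1.17.1), two-sided. The fit was also run on simulated counts in which 200 genes were changed 2-fold, as many up as down. Such a balanced change does not test the scaling between the groups. Rows for unassigned reads stayed out of library sizes. Depth was 36532207 to 57952035 reads per library, and bounds from 0 reads cover counting error only.

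The members and lists were chosen with earlier results of these data known. Values in every library are given for members past the threshold with an absolute log2 fold change above 1, for the SREBP, SCAP and INSIG genes and for the 3 highest and 3 lowest members; from the further pathway list, the 3 lowest and 3 highest past the threshold were named. The pseudogenes, the length classes and the promoters shown were picked after values were seen. Alternatives were RLE, upper-quartile, library-size and uniquely-aligned scaling, DESeq2, limma-voom (limma 3.58.1), no filter, 10 counts in every library, protein-coding genes only, an adjusted p of 0.01, 5 reads added for ratios, and leaving out each library.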

Additional observations from a re-analysis of the deposited data

Results flagged for a closer look

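Both results here come from reads outside the comparison of the 32 genes. MIR33A, the microRNA gene inside SREBF2, had 28 reads over the PRL3 libraries and 0 over the EV libraries, at least 7.91-fold higher at a floor of 3 reads over the EV group, while SREBF2 itself was lower in PRL3 (log2 fold change -0.79). Of the uniquely aligned reads of the PRL3 libraries, a mean of 66.3% lay outside annotated exons, beside 33.3% in EV libraries. Whether the second had a part in the first was not tested. With 3 libraries in a group, no library was tested for standing apart.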

How the results depend on the processing

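The number of lower genes stayed within 1.5 times 19 in every alternative except reads on genes alone, with 11. The number of higher genes, 2 with TMM, was 4 with upper-quartile scaling, 9 with reads on genes alone, 0 with all uniquely aligned reads, 5 in the fit of protein-coding genes only, 1 at an adjusted p of 0.01 and 1 to 4 with a library left out in turn (4 without EV B1, 1 in the other fits). The median log2 fold change was -0.49 with upper-quartile scaling and with protein-coding genes only, -0.17 with reads on genes alone and -1.14 with all uniquely aligned reads. DESeq2 called 20 lower and 2 higher, and limma-voom 19 and 3.

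Signs turned for 9 genes, none of them called with TMM. With all uniquely aligned reads HMGCS1 was at -0.19, MVK at -0.42, INSIG1 at -0.18, ACACA at -0.46 and FADS1 at -0.40, and with reads on genes alone LBR was at 0.10, SC5D at 0.25, INSIG2 at 0.18 and ELOVL6 at 0.42. ACACA was at -0.016 with RLE scaling and DESeq2, and ELOVL6 at 0.11 with upper-quartile scaling and with protein-coding genes only. With a library left out in turn MVK ranged from -0.017 to 0.17, SC5D from -0.38 to 0.025, ACACA from -0.015 to 0.074 and ELOVL6 from -0.15 to 0.084. The cause was not tested. No difference of a ratio changed sign. Without PRL3 B11, 15 genes were lower, with SQLE, TM7SF2, SREBF1 and SCD no longer called.

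No paired analysis was possible because EV libraries are numbered B1 to B3 and PRL3 libraries B9 to B11. The scaling between groups cannot be settled from these counts, since 33.3% of aligned reads in EV and 66.3% in PRL3 fell outside exons, and values near 0 take their sign from it. Low counts limit CYP51A1, INSIG2 and MIR33A most.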
